A study of Homo sapiens with 12 samples.

Results

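The prostaglandin system was examined through 10 genes in SW1783 cells, a human astrocytoma line, out of 60675 gene IDs in the deposited table. They encode a phospholipase (PLA2G4A), both cyclooxygenases (PTGS1 and PTGS2), the prostaglandin synthases (PTGES, PTGES2, PTGES3 and PTGIS), the enzyme that breaks prostaglandins down (HPGD) and a pair of prostaglandin E2 receptors (PTGER2 and PTGER4). The genes were chosen by their place in the pathway, but with the fold changes of each dose against vehicle already known, among them the low level of PTGS2 at the low dose. Contrasts with vehicle are therefore given for these genes as a description and not as tests. The same holds for the steps from one dose to the next, since each step is the difference of a pair of these contrasts. All 12 libraries were used, in 4 groups of 3. Vehicle cells were given PBS with 2% DMSO, and cells of the other groups a water extract of Aconitum carmichaeli Debeaux (ACD) at 20 (low dose), 100 (medium dose) or 500 µg/mL (high dose), each for 24 h. The paper states that the extract was itself made up in PBS with 2% DMSO, and that a small volume of extract was added to the medium of each well. ACD is named in the titles and treatment labels, whereas the protocol text of the samples describes Poria cocos. A single line was used and the labels do not say that replicates were separate cultures, so p-values measure the spread between these libraries, which may be technical.

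Prostaglandins are lipid signals made from arachidonic acid, which phospholipase A2 releases from membranes. Cyclooxygenases turn it into prostaglandin H2, and terminal synthases convert that into prostaglandin E2, prostacyclin and other prostanoids, which act on G protein-coupled receptors. In astrocytes and gliomas PTGS2 is the inducible cyclooxygenase and is known for its part in inflammation. PTGER2 and PTGER4 raise cAMP when prostaglandin E2 binds, and HPGD inactivates the prostaglandin after uptake into the cell.

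Total counts per library lay between 18863863 and 24200576. Among 12 astrocyte and glioma markers 7 had a mean under 10 normalised counts, including GFAP, S100B and AQP4, and AQP4 was at 0 in every library, whereas VIM, CD44, SOX9, SLC1A3 and NES were detected. At the high dose SLC1A3 fell from 690.1 to 126.3 normalised counts (adjusted p 3.85e-115 in DESeq2) and NES from 214.3 to 64.7 (adjusted p 6.17e-26 in DESeq2), while VIM was 1.22 times its vehicle level. The summed level of this list, mostly VIM and CD44, was 144289 to 152085 with vehicle and 152316 to 154036 at the high dose. All 6 colon epithelial markers, which would mark the other line of the study, had means under 10, with summed levels of 0.932 to 7.33 per library. Of 6 immune and microglial markers, 3 had means under 10 and TYROBP was at 0 throughout, and the summed level lay between 3150 and 3319 with vehicle and between 3947 and 4231 at the high dose, most of it from CD68. In the same list PTPRC had a mean of 274.9 with vehicle and 84.8 at the high dose, and CSF1R of 68.0 and 30.9. Of 4 endothelial markers, 3 had means under 10, and the summed level was 575 to 604 with vehicle and 616 to 675 at the high dose. Of 4 neuronal markers RBFOX3 and STMN2 had means under 10, and the summed level was 1314 to 1377 with vehicle and 1000 to 1067 at the high dose. The sum joins opposite directions, since SNAP25 fell from 703.7 to 166.8 (adjusted p 3.68e-91 in DESeq2) while SYT1 rose from 638.3 to 867.7 (adjusted p 3.63e-10 in DESeq2). The part of these markers in the results was not tested. In bulk RNA, fewer cells of a type and less RNA per cell cannot be told apart.

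The 250 bases before the start sites of PTGS2 and PTGER2 are shown because these were the members with over 100 normalised counts whose differences passed the call threshold in at least 1 contrast. Both come from RefSeq (GRCh38.p14). The window of PTGS2 is chr1:186680424-186680673 on the minus strand and that of PTGER2 is chr14:52314062-52314311 on the plus strand, each written 5′ to 3′ along its gene. Capitals mark matches, on either strand, to 6 motifs that were searched. These were the core of the cAMP response element (TGACG), the E-box (CACGTG), the C/EBP motif (TTNCGNAA), the ATF4 composite element (TGATGNAA), the TATA box (TATAAA) and the NF-kB consensus (GGGRNNYYCC). In these N is any base, R is A or G and Y is C or T. Sites that depart from these letters were not marked, such as gggactaccc in the PTGS2 window, so an unmarked stretch may still hold a variant site.
PTGS2: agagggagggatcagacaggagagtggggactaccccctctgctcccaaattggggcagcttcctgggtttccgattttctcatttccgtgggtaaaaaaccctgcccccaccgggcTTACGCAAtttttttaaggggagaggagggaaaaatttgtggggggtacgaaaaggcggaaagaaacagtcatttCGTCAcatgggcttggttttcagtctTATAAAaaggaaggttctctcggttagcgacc
PTGER2: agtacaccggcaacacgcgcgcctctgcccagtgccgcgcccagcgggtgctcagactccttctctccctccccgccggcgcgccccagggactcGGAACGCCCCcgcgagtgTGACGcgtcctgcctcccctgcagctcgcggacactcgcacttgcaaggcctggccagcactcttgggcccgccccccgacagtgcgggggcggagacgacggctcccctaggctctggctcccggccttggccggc

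Counting back from -1 next to the start site, the PTGS2 window held a C/EBP match from -133 to -126, a cAMP response element core from -58 to -54 and a TATA box from -32 to -27. The C/EBP motif reads the same on both strands, so its match was found on each. The PTGER2 window held an NF-kB match from -155 to -146 and a cAMP response element core from -137 to -133. Among 35116 RefSeq promoter windows of the same length, 2.18% held the C/EBP motif, 21.2% the cAMP response element core, 10.7% the TATA box, 9.96% the NF-kB consensus, 6.35% the E-box and 3.14% the ATF4 composite element. Of the 10 genes, 9 had a RefSeq promoter entry, in 13 windows. PTGIS had no entry. PTGS2 was the sole member with a C/EBP match, and 0 of the 9 held the ATF4 composite element. The cAMP response element core was found in 4 of the 9, the NF-kB consensus in 4, the TATA box in 2 and the E-box in 1. A match describes letters in a window and is not evidence that a factor binds there.

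Levels between genes were compared as normalised counts per kb of annotated exon. With vehicle, PTGES3 had the highest level, at 1795 per kb, followed by PTGS2 at 368.9, PTGER2 at 263 and PTGES2 at 178. PTGER4 (130.7) and PLA2G4A (129.9) overlapped between libraries and could not be ordered. The remaining genes lay far lower, with PTGES at 14.4, HPGD at 4.22, PTGS1 at 1.94 and PTGIS at 0.281 per kb. The place of PTGES2 depends on the length used, since on its longest transcript it stood at 311.8 per kb, above PTGER2 at 263.8, and at the low dose above PTGS2. At the low dose the ranges of PTGS2 (mean 234.2 per kb) and PTGER2 (252.1) overlapped, and at the high dose PTGS2 (459.8) lay above PTGES2 (208.7) and PTGER2 (137.9) without overlap.

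PTGS2 (ENSG00000073756, chromosome 1, 186671791 to 186680922, GRCh38), the inducible cyclooxygenase, was lowest at the low dose and highest at the high dose. The vehicle libraries held 1974, 1985 and 2110 normalised counts and libraries of the low dose 1370, 1240 and 1243. Libraries of the medium dose held 1581, 1551 and 1430 and libraries of the high dose 2644, 2564 and 2356. No library of one group overlapped with those of another, and the order of the groups was low, medium, vehicle and high. Against vehicle the log2 fold change was -0.65 (SE 0.0576) at the low dose, -0.41 (SE 0.0568) at 100 µg/mL and 0.32 (SE 0.0552) at the high dose. These correspond to 0.635, 0.751 and 1.25 times the vehicle level. From the low to the medium dose the log2 difference was 0.24 (SE 0.0586), and from the medium to the high dose it was 0.73 (SE 0.0563). Among 11264 genes averaging at least 100 normalised counts, PTGS2 had the eighth lowest fitted log2 fold change at the low dose.

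PTGS1 (ENSG00000095303, chromosome 9, 122370530 to 122395703), the cyclooxygenase made constitutively in many tissues, was close to the limit of detection. It had 5 to 20 counts per library, with 9.22, 14.0 and 10.4 normalised counts in the vehicle libraries and 5.79, 9.01 and 14.97 at the high dose. All groups overlapped. Its log2 fold changes against vehicle lay between -0.17 (SE 0.569) and 0.25 (SE 0.554), so a difference of the size seen for PTGS2 was not detectable at this depth. Per kb of exon, PTGS2 exceeded PTGS1 in every library, by 149 to 226 times with vehicle, 100 to 160 times at the low dose, 80.1 to 219 times at 100 µg/mL and 166 to 482 times at the high dose. The ranges of this ratio overlapped between neighbouring groups.

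**Figure D1:**
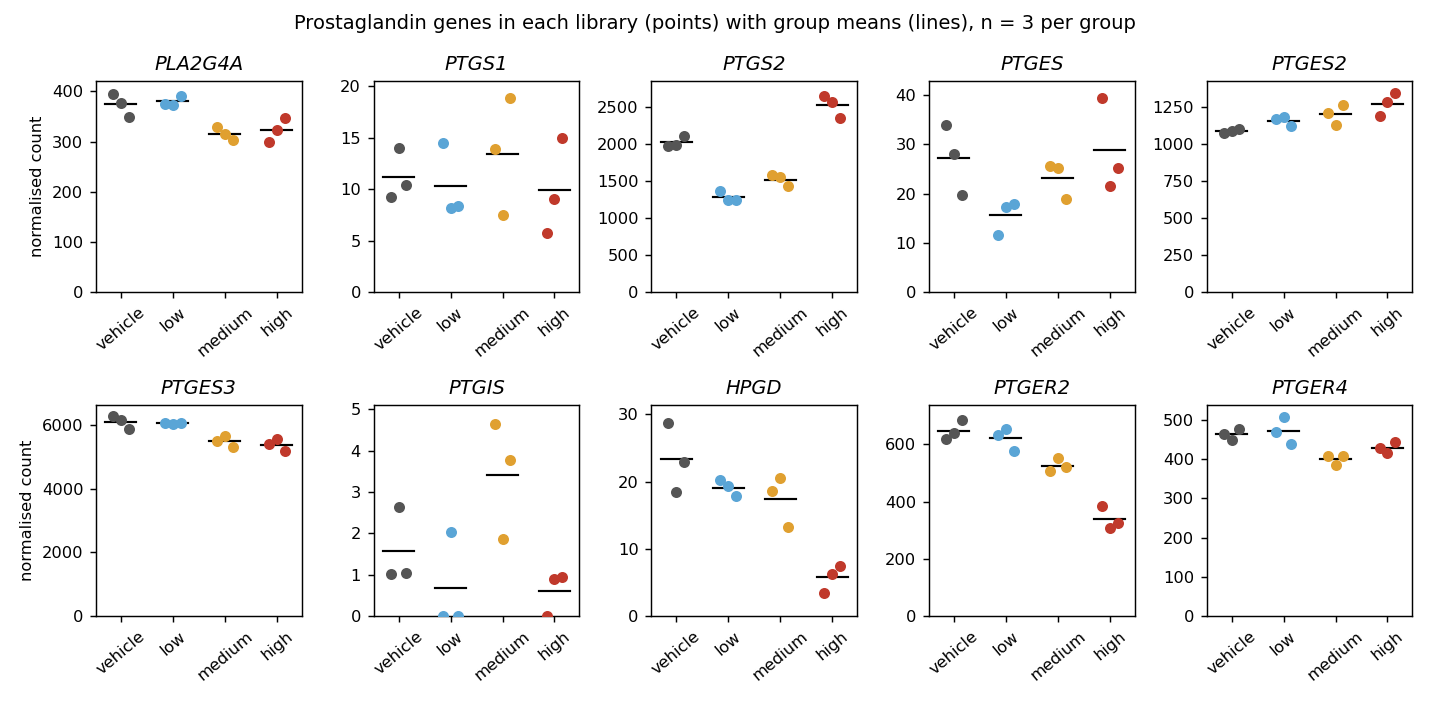
Normalised counts (vertical axes, from 0) of the 10 prostaglandin genes in each of the 12 libraries (points) by group (horizontal axes), with group means as lines. PTGS2 is at 1240 to 1370 in libraries of the low dose and at 2356 to 2644 in libraries of the high dose, while PTGER2 and HPGD are lowest in libraries of the high dose.

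PLA2G4A (ENSG00000116711, chromosome 1, 186828949 to 186988981), the cytosolic phospholipase A2 that releases arachidonic acid, starts 149 kb from the start site of PTGS2. It held 395.5, 376.7 and 349.7 normalised counts with vehicle and 375.1, 373.3 and 391.3 at the low dose, which overlapped. Libraries of the medium dose, at 328, 315.9 and 302.5, and libraries of the high dose, at 298.7, 322.5 and 347, all lay below the vehicle libraries. The log2 fold changes against vehicle were 0.02 (SE 0.0965), -0.25 (SE 0.0984) and -0.21 (SE 0.0979) from the low to the high dose. The log2 difference was -0.27 (SE 0.0985) from the low to the medium dose and 0.04 (SE 0.1) from there to the high dose.

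The prostaglandin E synthases differed widely in level. PTGES (ENSG00000148344, chromosome 9, 129738331 to 129753042), the inducible membrane enzyme that is coupled to PTGS2, had 12 to 34 counts per library. Its normalised counts were 33.8, 28.0 and 19.8 with vehicle and 11.5, 17.3 and 17.8 at the low dose, so that libraries of the low dose lay below all vehicle libraries. Libraries of the medium dose held 25.5, 25.2 and 18.9 and libraries of the high dose 39.4, 21.6 and 25.3, both overlapping with vehicle. The log2 fold changes against vehicle were -0.81 (SE 0.401) at the low dose, -0.24 (SE 0.382) at 100 µg/mL and 0.06 (SE 0.374) at the high dose. The order of its group means was that of PTGS2, lowest at the low dose and highest at the high dose, although the steps between doses, 0.58 (SE 0.407) and 0.30 (SE 0.381) on the log2 scale, had large standard errors.

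PTGES2 (ENSG00000148334, chromosome 9, 128120693 to 128128462), a membrane-associated prostaglandin E synthase, lay slightly above vehicle at every dose. It held 1069, 1083 and 1097 normalised counts with vehicle, 1164, 1179 and 1120 at the low dose, 1208, 1126 and 1264 at 100 µg/mL, and 1188, 1280 and 1341 at 500 µg/mL. The dosed libraries did not overlap with the vehicle libraries, although those of successive doses overlapped. Its log2 fold changes were 0.09 (SE 0.0606), 0.15 (SE 0.0604) and 0.23 (SE 0.0601) from the low to the high dose.

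PTGES3 (ENSG00000110958, chromosome 12, 56663341 to 56688408) encodes p23, which has prostaglandin E synthase activity and is better known as a co-chaperone of HSP90. It was the most abundant of the 10 genes, with 6271, 6162 and 5871 normalised counts with vehicle and 6082, 6031 and 6059 at the low dose. Libraries of the medium dose, at 5499, 5670 and 5325, and libraries of the high dose, at 5407, 5554 and 5198, lay below both. Its log2 fold changes against vehicle were -0.01 (SE 0.034), -0.15 (SE 0.0342) and -0.18 (SE 0.0342), so that most of the difference lay between the low and the medium dose. Its annotated pseudogene copies PTGES3P1 and PTGES3P3 together held 0.13% of its normalised counts, so few reads were assigned to the copies. Per kb of exon PTGES3 exceeded PTGES2 by 9.58 to 10.5 times with vehicle and by 6.94 to 8.15 times at the high dose.

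PTGIS (ENSG00000124212, chromosome 20, 49503874 to 49568137), prostacyclin synthase, had 0 to 4 counts per library, at which no difference was detectable, and it is the sole member with a mean under 10 normalised counts.

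**Figure D2:**
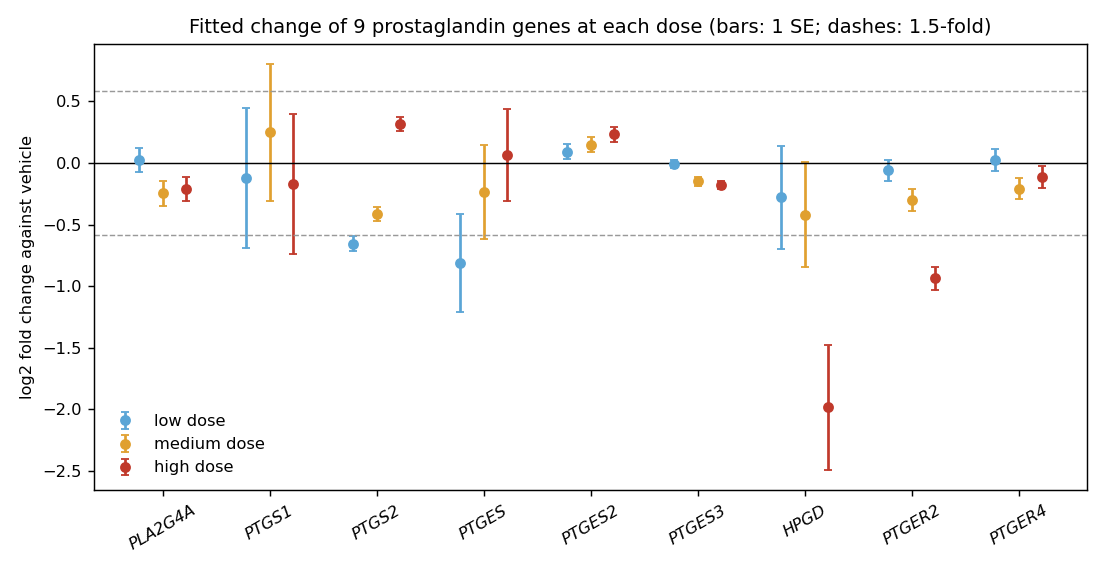
Log2 fold change against vehicle (vertical axis) of 9 prostaglandin genes (horizontal axis) at the low, medium and high dose, with bars of 1 SE and dashed lines at 1.5-fold. PTGIS is left out for its low counts. PTGS2 runs from -0.65 to 0.32, whereas PTGER2 and HPGD reach -0.94 and -1.99 at the high dose.

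HPGD (ENSG00000164120, chromosome 4, 174490175 to 174523154), the NAD-dependent 15-hydroxyprostaglandin dehydrogenase, was the member with the greatest difference from vehicle at the high dose. The vehicle libraries held 28.7, 18.4 and 22.9 normalised counts, libraries of the low dose 20.2, 19.4 and 17.8, and libraries of the medium dose 18.6, 20.5 and 13.2. Libraries of the high dose held 3.47, 6.31 and 7.48, below those of every other group. The other 3 groups overlapped. The log2 fold changes against vehicle were -0.28 (SE 0.419), -0.42 (SE 0.423) and -1.99 (SE 0.506) from the low to the high dose. From the medium to the high dose the log2 difference was -1.57 (SE 0.517). These values rest on 3 to 28 counts per library, and without high dose replicate 1, the library with 3 counts, that difference was -1.335.

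PTGER2 (ENSG00000125384, chromosome 14, 52314305 to 52328598), which encodes the prostaglandin E2 receptor EP2, was lower at each successive dose. It held 618.9, 641.3 and 684.8 normalised counts with vehicle and 633.9, 652.8 and 577.6 at the low dose, which overlapped. Libraries of the medium dose held 506.5, 551.7 and 520.1 and libraries of the high dose 385.5, 309 and 325.5, each group below the one before it. The high dose mean was 340 ± 40.3 against 648.3 ± 33.5 with vehicle (SD, n = 3), 0.522 times the vehicle level. The log2 fold changes against vehicle were -0.06 (SE 0.0857), -0.30 (SE 0.0869) and -0.94 (SE 0.0909). The log2 difference was -0.24 (SE 0.0874) from the low to the medium dose and -0.64 (SE 0.0924) from the medium to the high dose. The second step exceeded 1.5-fold, but without high dose replicate 2 it was -0.57 and short of it. The markers SLC1A3, NES, PTPRC and SNAP25 were lower in the same libraries of the high dose. In the same lists the means of CSF1R, SOX9 and CD44 were also lower there, whereas those of VIM, CD68 and SYT1 were higher. The part of these markers in the levels of PTGER2 and HPGD was not tested.

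PTGER4 (ENSG00000171522, chromosome 5, 40679915 to 40693735), which encodes the receptor EP4, kept nearer to its vehicle level. It held 464.2, 447.7 and 477.7 normalised counts with vehicle, 468.4, 506.9 and 437.4 at the low dose, 408, 385.8 and 409 at 100 µg/mL, and 427.2, 414.4 and 442.4 at the high dose. Its lowest level was at the medium dose, and the medium and high dose libraries lay below the vehicle libraries. The log2 fold changes against vehicle were 0.03 (SE 0.0864), -0.21 (SE 0.0878) and -0.11 (SE 0.0871). The log2 difference was -0.23 (SE 0.088) from the low to the medium dose and 0.09 (SE 0.0887) from the medium to the high dose. The ratio of PTGER2 to PTGER4 per kb of exon, which does not depend on the scaling of libraries, was 1.92 to 2.06 with vehicle, 1.85 to 1.95 at the low dose, 1.79 to 2.06 at 100 µg/mL and 1.058 to 1.297 at the high dose. The high dose ratios lay below those of every other group.

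A gene was called where its DESeq2 adjusted p was under 0.05 and its fold change over 1.5. Against vehicle, the fit called 1 of the 10 genes at the low dose (PTGS2, lower), 0 at 100 µg/mL and 2 at 500 µg/mL (HPGD and PTGER2, both lower). Over all genes tested, the shares called were 0.118%, 3.81% and 18.2% from the low to the high dose, and nothing is read from the members' counts in these contrasts or in the steps between doses. At the medium dose 6 members had an unadjusted p under 0.05 and 4 a DESeq2 adjusted p under 0.05. Of all genes tested there, 4157 of 14082 had such an adjusted p. The edgeR quasi-likelihood test also called 0 members at that dose, beside 809 of 15983 genes. PTGS1, PTGES, PTGIS and HPGD lacked an adjusted p at the low dose, where genes with means under 263 normalised counts were left out of the adjustment, and at the medium dose that held for PTGS1, PTGIS and HPGD. From the medium to the high dose 3 of the 10 genes were called (PTGS2 higher, HPGD and PTGER2 lower), beside 10.2% of all genes tested. From the low to the medium dose 0 were called by DESeq2 or by edgeR, beside 1.94% of all genes tested. In that step 5 members had a DESeq2 adjusted p under 0.05 with a fold change under 1.5, and 2 did (PTGS2 and PTGES3) with the replicate number as a block. Without the block, 2657 of 14082 genes tested had an adjusted p under 0.05 in that step. A median log2 fold change against vehicle was taken over the 9 members with a mean of at least 10 normalised counts. It was -0.06, -0.24 and -0.17 from the low to the high dose. Over all genes with such a mean it lay between -0.0008 and 0.003. The members' medians at 100 and 500 µg/mL were the values of PTGES (SE 0.382) and PTGS1 (SE 0.569), genes with few counts. The members were chosen with these fold changes known, so nothing is read from their medians.

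Around these 10 genes, 114 other genes were examined in 8 lists covering the supply of arachidonic acid, other synthases, breakdown and transport, other receptors, leukotrienes, regulators of PTGS2, cAMP response genes and HSP90 co-chaperones. The lists, too, were written with earlier results of these data known. Their counts and adjusted p-values are therefore a description and not tests, as are the adjusted p-values of the markers above. At the high dose 27 of the 114 were called, 16 higher and 11 lower, which is 28.7% of the 94 with an adjusted p. Over all genes tested at that dose, 8.66% were called higher and 9.57% lower. At the medium dose 11 were called, 7 higher and 4 lower, beside 2.34% higher and 1.48% lower over all genes tested. The 11 are 13.6% of the 81 with an adjusted p. At the low dose DESeq2 called 0 of the 114, as did the edgeR quasi-likelihood test, although 9 had a DESeq2 adjusted p under 0.05 with a smaller fold change and 16 an unadjusted p under 0.05. Only 61 of the 114 had an adjusted p there. Over all genes tested at that dose, 306 of 9304 had an adjusted p under 0.05.

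Of 22 genes for the release and recycling of arachidonic acid, 4 were called at the high dose, all higher, and the median log2 fold change over the 16 with a mean of at least 10 was 0.24. PLA2G4C, a further cytosolic phospholipase A2, rose from 8.82 ± 1.26 to 26.1 ± 4.16 normalised counts (a log2 change of 1.57, SE 0.477, adjusted p 0.00274 in DESeq2). PLA2G6, the calcium-independent phospholipase A2, rose from 54.6 ± 5.21 to 110.5 ± 11.1 (1.01, SE 0.215, adjusted p 9.09e-06 in DESeq2). MGLL, which frees arachidonic acid from the endocannabinoid 2-arachidonoylglycerol in brain, rose from 268.8 ± 13.4 to 544.9 ± 37.8 (1.02, SE 0.0957, adjusted p 2.46e-25 in DESeq2) and was called higher at the medium dose too (0.62, SE 0.0979, adjusted p 5.35e-09 in DESeq2). ANXA1, an annexin known as an inhibitor of phospholipase A2, was the other gene called. PLA2G4A, in contrast, lay slightly below vehicle at this dose. PLA2G6 shares 22.9% of its exon bases with opposite-strand genes. Whether counting used strand is not stated, so part of its count is uncertain.

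Of 10 other prostanoid synthases and reductases, 4 were called at the high dose, 1 higher and 3 lower (median over 8 genes -0.27). TBXAS1, thromboxane synthase, fell from 47.4 ± 2.03 to 26.7 ± 4.17 normalised counts (a log2 change of -0.83, SE 0.292, adjusted p 0.011 in DESeq2). PRXL2B, a prostamide and prostaglandin F synthase, fell from 751.2 ± 49.3 to 463.1 ± 29.4 (-0.70, SE 0.0766, adjusted p 9e-19 in DESeq2), and 13.4% of its exon bases lie under opposite-strand genes. AKR1C1, an aldo-keto reductase that acts on steroids and prostaglandins, rose from 608.4 ± 64.4 to 922.7 ± 79.2 (0.60, SE 0.0941, adjusted p 8.09e-10 in DESeq2). Its close relative AKR1C3, the prostaglandin F synthase of the family, was called lower at the high dose (-0.59, SE 0.126, adjusted p 9.77e-06 in DESeq2) and the medium dose (-0.65, SE 0.126, adjusted p 3.2e-06 in DESeq2). AKR1C genes are similar enough that reads may be split between them. PTGDS and HPGDS, the prostaglandin D synthases, had means under 10 normalised counts.

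Of 6 genes for breakdown and transport, 1 was called at the high dose (median -0.20), beside 18.2% of all genes tested. SLCO2A1, the carrier that takes prostaglandins up into cells before HPGD oxidises them, fell from 240.9 ± 3.77 normalised counts with vehicle to 154.7 ± 5.74 at 100 µg/mL and 80.8 ± 5.17 at 500 µg/mL. The log2 fold changes were -0.64 (SE 0.129, adjusted p 8.93e-06 in DESeq2) and -1.57 (SE 0.144, adjusted p 1.13e-26 in DESeq2). The other 5 differed less. PTGR1 and PTGR2, reductases that act on prostaglandin metabolites after HPGD, lay above vehicle in all 3 libraries of the high dose, with log2 fold changes of 0.15 (SE 0.0582, adjusted p 0.0267 in DESeq2) and 0.28 (SE 0.0821, adjusted p 0.00181 in DESeq2). PTGR3 of the same list lay below vehicle in all 3 libraries of the high dose, at -0.26 (SE 0.081, adjusted p 0.00409 in DESeq2). The exporter ABCC4 fell by 0.33 on the log2 scale (SE 0.0595, adjusted p 1.42e-07 in DESeq2). The list therefore held genes of both directions.

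Of 10 other prostanoid receptors and related genes, 5 had means of at least 10 normalised counts and 4 were called at the high dose, 1 higher and 3 lower (median -0.63). TBXA2R, the thromboxane receptor, fell from 63.1 ± 8.67 to 27.3 ± 7.45 normalised counts (a log2 change of -1.22, SE 0.286, adjusted p 6.94e-05 in DESeq2). PTGFRN, a membrane protein that associates with the prostaglandin F receptor, fell from 4461 ± 65.1 to 2721 ± 109 (-0.71, SE 0.0369, adjusted p 8.74e-82 in DESeq2), and PTGFR itself was called lower (-0.63, SE 0.091, adjusted p 4.02e-11 in DESeq2). PPARG, a nuclear receptor activated by some prostaglandin derivatives, rose from 418.8 ± 6.80 to 910.2 ± 43.4 (1.12, SE 0.0738, adjusted p 9.39e-51 in DESeq2). PTGER1, PTGER3, PTGIR, PTGDR and PTGDR2 had means under 10.

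**Figure D3:**
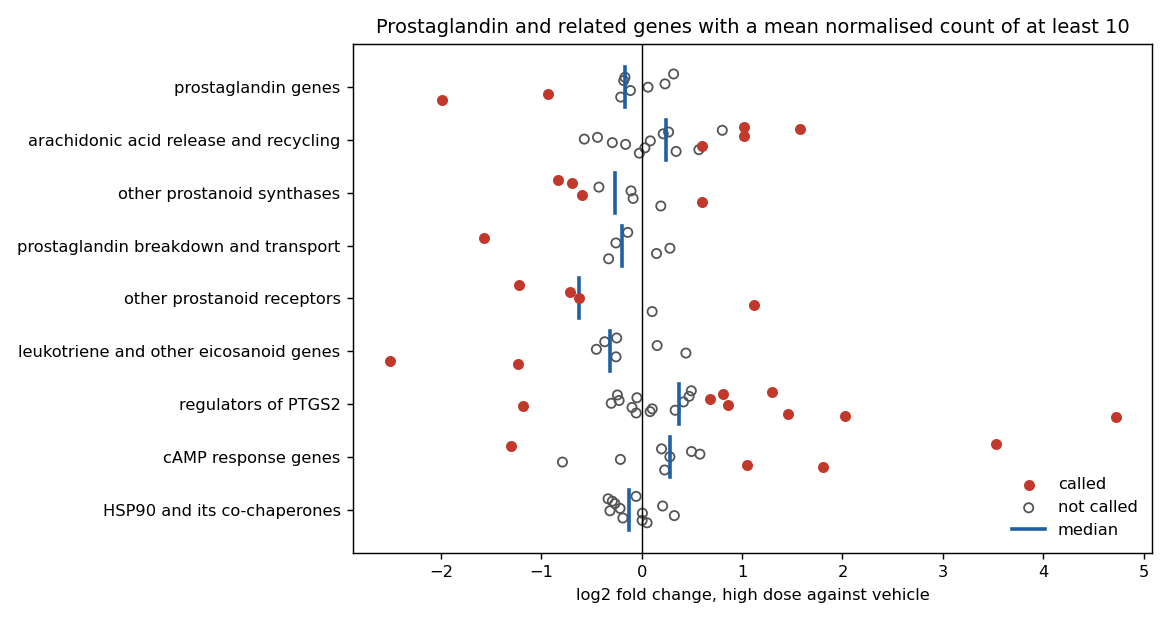
Log2 fold change at the high dose against vehicle (horizontal axis) of single genes with a mean of at least 10 normalised counts, grouped by list (vertical axis). Filled points were called, open points were not, and bars are list medians, which run from -0.63 for the other prostanoid receptors to 0.37 for the regulators of PTGS2.

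Of 20 leukotriene and other eicosanoid genes, 8 had means of at least 10 normalised counts and 2 were called at the high dose, both lower (median -0.31). CYSLTR1, a cysteinyl leukotriene receptor, fell from 34.0 ± 9.41 to 5.98 ± 1.17 normalised counts (a log2 change of -2.51, SE 0.475, adjusted p 5.6e-07 in DESeq2). CYP1B1, a cytochrome P450 that can oxidise arachidonic acid, fell from 3314 ± 17.4 to 1412 ± 52.8 (-1.23, SE 0.0418, adjusted p 2.88e-189 in DESeq2), and 12.9% of its exon bases lie under opposite-strand genes. ALOX5, the enzyme that starts leukotriene synthesis, was among the genes with a mean under 10.

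Of 20 regulators of PTGS2 transcription and mRNA stability, 8 were called at the high dose, 7 higher and 1 lower (median 0.37). ATF3, a stress-induced factor, rose from 38.3 ± 2.09 to 1014 ± 45.9 normalised counts (a log2 change of 4.73, SE 0.165, adjusted p 8.32e-179 in DESeq2). ATF4, the main factor of the integrated stress response, rose from 2059 ± 34.3 to 8380 ± 283 (2.03, SE 0.0372), with an adjusted p too small for DESeq2 to represent. CEBPB, whose family binds the C/EBP motif marked in the PTGS2 window, rose from 697.8 ± 109.7 to 1915 ± 222 (1.46, SE 0.162, adjusted p 2.55e-18 in DESeq2), and 12.6% of its exon bases lie under opposite-strand genes. At the medium dose, where PTGS2 lay below vehicle, 4 of the 20 were called, all higher (CEBPB, ATF3, ATF4 and ZFP36L1). CEBPB stood there at 1.653 times its vehicle level, and at the low dose at 1.335 times (adjusted p 0.166 in DESeq2). At the low dose, where PTGS2 was lowest, 0 of the 20 were called by DESeq2 or by edgeR, and 4 had an unadjusted p under 0.05. Short of the 1.5-fold threshold, ATF4 rose there 1.26-fold (adjusted p 2.66e-14 in DESeq2) and ZFP36L1, which promotes mRNA decay, 1.07-fold (adjusted p 0.0435 in DESeq2). ZFP36L1 was called higher at the medium dose (1.565-fold) and at the high dose (2.458-fold), where PTGS2 was highest. ZFP36 of the same list was called higher at the high dose (1.749-fold). By DESeq2 adjusted p under 0.05 alone, 15 of the 20 differed at that dose, 11 higher and 4 lower. Over all genes tested, 9040 of 19453 did. Among the 4 were HNRNPD (0.81-fold) and KHSRP (0.855-fold), which also act on mRNA stability. The part of these regulators in the level of PTGS2 was not tested.

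Of 14 cAMP response genes, 4 were called at the high dose, 3 higher and 1 lower (median over 11 genes 0.28). SIK1, a kinase induced by cAMP, rose from 249.2 ± 6.19 to 2881 ± 155 normalised counts (a log2 change of 3.53, SE 0.0747, adjusted p too small for DESeq2 to represent). DUSP1, a phosphatase that restrains MAP kinases, rose from 669.1 ± 33 to 2341 ± 44.9 (1.81, SE 0.064, adjusted p 1.72e-173 in DESeq2). RGS2, which limits G protein signals, fell from 185 ± 7.17 to 74.9 ± 8.82 (-1.30, SE 0.169, adjusted p 1.08e-13 in DESeq2). Of 12 genes for HSP90 and its co-chaperones, the partners of PTGES3, 0 were called at the high dose by DESeq2 or by edgeR at the 1.5-fold threshold. Over all genes tested at that dose, 9040 of 19453 passed an adjusted DESeq2 p of 0.05. With smaller fold changes 8 of the 12 did, which were also the 8 with an unadjusted p under 0.05. Of these 6 fell, among them HSP90AA1 (-0.32, SE 0.0304, adjusted p 2.25e-24 in DESeq2), and 2 rose, FKBP4 (0.32, SE 0.0334, adjusted p 2.63e-21 in DESeq2) and PPID (0.21, SE 0.0702, adjusted p 0.00782 in DESeq2). The median log2 fold change of the list was -0.12, beside -0.18 for PTGES3.

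The genes whose levels followed PTGS2 most closely were named by Pearson's r of log2(normalised count + 1) over the 12 libraries, among 11263 genes with a mean of at least 100. They were HAPSTR1 (r = 0.963), a stress response protein, SLC38A2 (0.963), an amino acid transporter, KPNA4 (0.940), a nuclear import receptor, PDE5A (0.935), the cGMP phosphodiesterase, and KLF9 (0.935), a transcription factor. Each was lower at the low dose than with vehicle and highest at the high dose. KLF9 held 1348 ± 5.44 normalised counts with vehicle, 1130 ± 60.7 at the low dose, 1192 ± 19.2 at 100 µg/mL and 1687 ± 22.6 at the high dose. SLC38A2 held 9598 ± 319.5, 8133 ± 215.6, 9055 ± 387.2 and 11028 ± 302.5 in the same order. The 12 points fall into 4 groups that share libraries and scaling, so these correlations describe the pattern and carry no p. A level below all vehicle libraries at the low dose and above all of them at the high dose was found for 262 of 11264 genes (2.33%), PTGS2 among them.

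PACERR (ENSG00000273129, chromosome 1, 186680601 to 186683165), a lncRNA on the opposite strand that is known as a regulator of PTGS2, starts inside the PTGS2 window shown above, 178 bases upstream of the RefSeq start. It had 2 to 11 counts per library. Its normalised counts were 7.17, 4.38 and 7.29 with vehicle, 1.92, 5.10 and 5.23 at the low dose, 4.64, 4.66 and 4.71 at 100 µg/mL, and 8.10, 7.21 and 10.3 at the high dose. The group means were in the order of PTGS2, but the low and medium dose libraries overlapped with vehicle, as did libraries of the high dose. The annotated exons of PTGS2 overlap with opposite-strand exons over 3.99% of their bases.

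**Figure D4:**
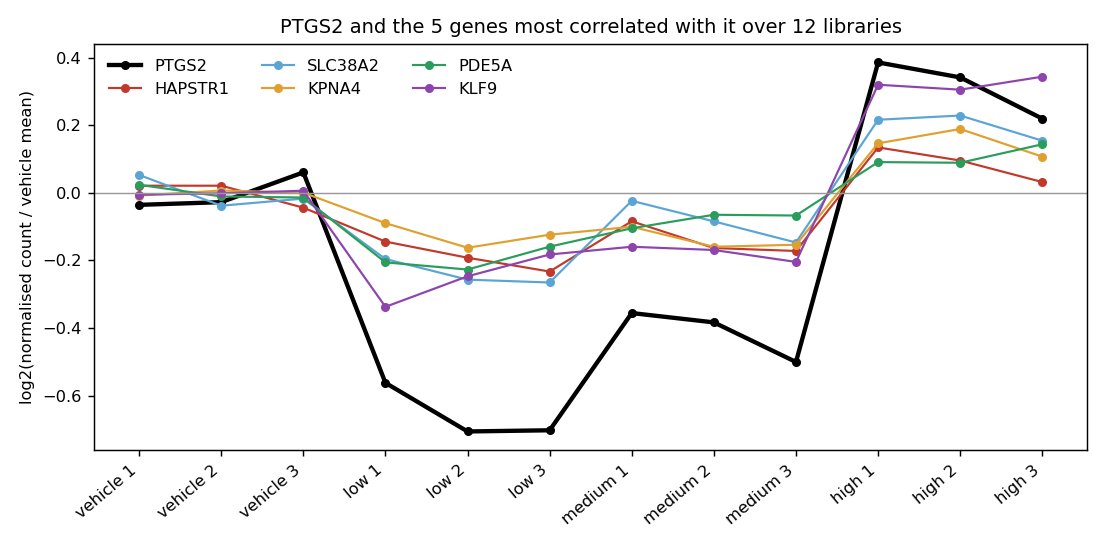
Log2 ratio of the normalised count to the vehicle mean (vertical axis) in each of the 12 libraries (horizontal axis) for PTGS2 and the 5 genes most correlated with it. All 6 genes lie below 0 in the low and medium dose libraries and above 0 in libraries of the high dose, with PTGS2 reaching furthest below.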

How the data were processed

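RNA from SW1783 cells was sequenced by the authors as strand-specific, paired-end mRNA libraries. The submitters' processing notes name FastQC 0.11.9, Trim Galore 0.6.5, STAR 2.7.3a and RSEM 1.3.3 on GRCh38. The paper gives later releases of Trim Galore and STAR. The authors deposited RSEM expected counts per gene, which share ambiguous reads among genes and need not be whole (8.75% of values). These were rounded to whole numbers. No column was left unused. Symbols, positions and exon lengths came from GENCODE v44, which held 93.2% of the IDs.

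DESeq2 1.42.0 in R 4.3.3 was fitted to all 12 libraries with a term for group alone, and contrasts were tested with its Wald test (two-sided), which the study names. A gene was called at a Benjamini-Hochberg adjusted p under 0.05 over all genes and a fold change over 1.5, with independent filtering tuned to 0.05. Size factors of DESeq2 gave the normalised counts. Medians of lists cover genes with a mean of at least 10. The procedure was tested on simulated data. Alternatives included edgeR 4.0.16, other filters, a replicate block and leaving out each library.

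The 10 genes and the lists were chosen with earlier results of these data known. Named were all 10 genes, the 3 largest called changes at the high dose in each list, the 5 genes most correlated with PTGS2 and its neighbours. ANXA1, AKR1C3, PTGFR, PTGR1, PTGR2, PTGR3, ABCC4, ZFP36, ZFP36L1, HNRNPD, KHSRP, HSP90AA1, FKBP4 and PPID were added after their values were seen. So were markers and genes named as undetected. Sequences are from RefSeq. Replicate pairs differed by 1.99 to 3.55 in chi-square per degree of freedom, more than counting noise, so all were kept. Replicate numbers were checked as pairs through correlations of deviations from group means. They paired the low with the medium dose (0.131 to 0.248 for equal numbers), and in no other pair of groups was every correlation over 0.1.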

Additional observations from a re-analysis of the deposited data

How the results depend on the processing

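The counts of the 10 prostaglandin genes called were the same under edgeR, TMM factors, the filter on low counts, either change to independent filtering and a fit of only the 2 groups compared. They moved with the fold rule. With no fold threshold the fit called 4 of the 10 at the medium dose against vehicle, 5 at the high dose and 5 from low to medium. Over all genes tested it called 4157 of 14082, 9040 of 19453 and 2657 of 14082 in these contrasts. The Wald test against the 1.5-fold threshold itself called 0 at the low dose, 1 at the high dose (PTGER2) and 0 from medium to high. Over all genes tested that test called 2 of 30802, 1484 of 18856 and 480 of 18856. For the 114 other genes, no fold threshold gave 9, 30 and 61 calls from the low to the high dose, and the test against the threshold gave 3 at the medium and 14 at the high dose. With no fold threshold, 306 of 9304 genes tested were called at the low dose. The test against the threshold called 114 of 17064 genes tested at the medium dose. Leaving out 1 library gave 0 to 1 calls among them at the low dose, where SIK1 was called without low dose replicate 3. It gave 2 to 3 of the 10 genes from medium to high, the 2 lost calls being those of HPGD and PTGER2 given above. Of 840 fold changes of single members under alternatives, 836 kept their call or, without a test, stayed within 1 SE, 2 lost their call, and 2 moved further, both for PTGIS without low dose replicate 2. No called value changed sign. Equal replicate numbers deviated together between low and medium, with correlations of 0.131 to 0.248, while unequal numbers reached at most 0.0125. Between medium and high, equal numbers gave 0.0637 to 0.269 and unequal ones reached 0.106. Between low and high, equal numbers gave 0.0406 to 0.198 and unequal ones reached 0.093. Between vehicle and the doses, equal numbers gave -0.124 to 0.0201. With the replicate block, 1, 0 and 2 of the 10 genes were called from the low to the high dose, 0 from low to medium and 3 from medium to high, as without it. By adjusted p alone the block left 2 of 5 members from low to medium. Over all genes and with the fold threshold, the block gave 235 calls in that step in place of 273. At the high dose it gave 3297 calls over all genes in place of 3546. Levels per kb moved with the length used, most for PTGES2 and HPGD. Counts of at most 34 per library limit PTGS1, PTGES, PTGIS and HPGD.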
